A study of Arabidopsis thaliana with 21 samples.

Results

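Seedlings of a hy5 mutant that made a HY5 protein with glutamine in place of lysine 87, fused to GFP, were compared with hy5 seedlings without the transgene. The comparison took 6 of the 21 RNA-seq libraries of the series, 3 of the K87Q line and 3 of hy5, chosen by the genotype and light condition in the labels. Every library came from 7-day-old Arabidopsis thaliana seedlings kept for 2 h in the control condition at 100 µmol m-2 s-1, the light in which they had grown. The K87Q group carried 35S:HY5K87Q-GFP, driven by the constitutive 35S promoter, in a hy5 background that the design text gives as the hy5-1 allele. The hy5 group carried the mutation alone, with no allele given, so both groups lacked a working endogenous HY5. Another 3 growth-light groups of 3 libraries each served to place the levels and to estimate the spread: 35S:HY5K87K-GFP in hy5-1, which keeps the lysine, 35S:HY5K87R-GFP in hy5-2, which carries arginine, and Col-0 wild type (WT). The number of independent transgenic lines is not given, and hy5-1 is known as an allele isolated in the Landsberg erecta accession. The substitution, the insertion of that line, the amount of HY5 and any difference in background from hy5 therefore cannot be told apart. The sample labels name no batch of collection or library preparation. Any such difference between the groups cannot be told apart from these either. The replicates are described as biological, with nothing on whether they were separate cultures, so p-values measure the spread between these libraries.

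HY5 is a bZIP transcription factor that accumulates in light and binds ACGT-containing promoter elements, among them the G-box CACGTG, in genes for photomorphogenesis, flavonoids, chlorophyll and the clock. In darkness the COP1/SPA ubiquitin ligase marks it for degradation, and B-box (BBX) proteins act as its partners or antagonists in light. Glutamine is often used to imitate an acetylated lysine, and arginine to keep the charge of a lysine that cannot be acetylated.

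The codon in question is AAA, codon 87 from the start codon of HY5 (AT5G11260), at chr5:3594310-3594312 on the minus strand of TAIR10, in coding exon 2 of the 4 in the 168-codon RefSeq transcript. It is shown with 30 coding bases on either side, joined across an intron, because it is the position at which the lines differ, with the lysine codon in capitals.
HY5 codon 87: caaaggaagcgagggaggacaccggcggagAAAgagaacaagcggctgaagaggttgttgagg

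HY5 itself checked the labels. It was counted at 279, 270 and 240 CPM (counts scaled by the TMM library size) in the K87Q libraries, against 0.0679, 0.376 and 1.31 CPM in the hy5 libraries. No hy5 library came near a K87Q library, and the log2 fold change was 8.92 ± 0.47 (SE; edgeR quasi-likelihood test, Benjamini-Hochberg adjusted p = 1.8e-08). The mean in K87Q was close to that in the other lines, with log2 differences of -0.20 ± 0.28 from K87K (mean 302 CPM) and -0.47 ± 0.28 from K87R (mean 365 CPM), neither called (adjusted p = 0.596 and 0.253). Against WT, at a mean of 9.17 CPM, it was higher by 4.84 ± 0.34 on the log2 scale (adjusted p = 2.7e-07). Reads of the transgene and of endogenous HY5 were counted together.

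Depth was 15265763 to 22101539 counts in the K87Q libraries and 14208669 to 19811935 in the hy5 libraries, and Spearman correlations between replicates were 0.978 to 0.982 in K87Q and 0.981 to 0.985 in hy5. The composition of the libraries differed. The 20 most counted genes took 13 to 16% of the counts in K87Q and 22.4 to 23.2% in hy5, and the TMM factors that correct for this were 1.09 to 1.26 in K87Q and 0.738 to 0.749 in hy5. Without that correction the median log2 fold change of all genes moved by 0.66, from 0.10 with it to 0.76 without it, so small changes are read relative to that shift.

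Of 19679 genes tested, 10442 (53.1%) were called at an adjusted p under 0.05, 5470 (27.8%) higher and 4972 (25.3%) lower in K87Q than in hy5. The count moved with the scaling and with the libraries fitted. Without TMM scaling the split was 11311 higher and 2404 lower, and with all 21 libraries fitted, high light included, 3386 genes were called. That fit, named below as the spread from all 21 libraries, also redid the filter on low counts and the scaling. The part of each in the lower count was not tested. Of all genes tested, 2583 (13.1%) were called higher by at least 2-fold and 2821 (14.3%) lower. For changes of at least 4-fold these were 713 (3.62%) and 1203 (6.11%). All 3 libraries of a group lay beyond all 3 of the other in 11828 genes (60.1%). A count for any list below stands against these background shares.

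**Figure D1:**
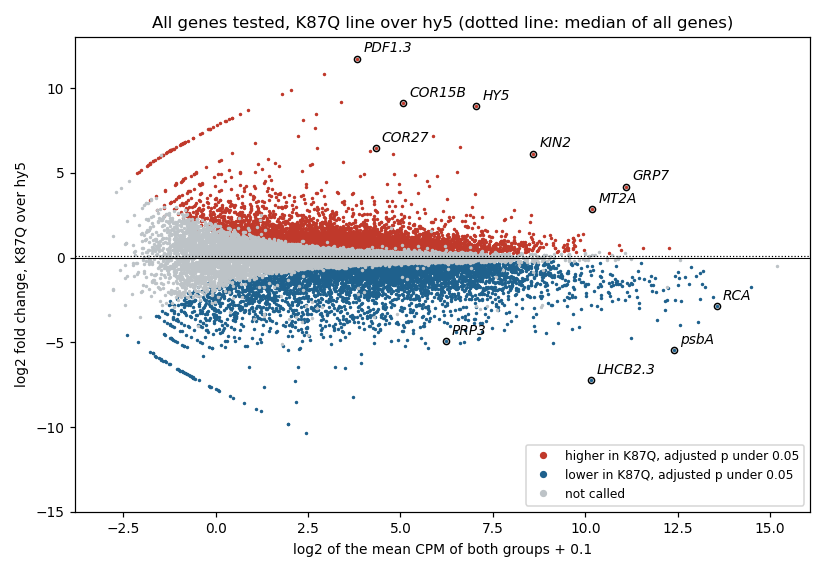
Log2 fold change of K87Q over hy5 (y axis) against the log2 mean CPM of both groups plus 0.1 (x axis) for all 19679 genes tested, with genes called higher in red, called lower in blue and not called in grey. The dotted line marks the median of 0.10, and the named points run between PDF1.3 at 11.74 and LHCB2.3 at -7.22.

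The genes that surround HY5 in light signalling were lower in K87Q more often than higher: of 34 tested, 18 were called lower, 7 higher and 9 not, with a median log2 fold change of -0.62. Without TMM scaling the list stood at 10 lower and 12 higher with a median of 0.03, so its overall direction rests on the scaling. The strongest members kept theirs. BBX28, a B-box protein that interferes with HY5 activity, was at 18.1, 14.2 and 16.1 CPM in K87Q, against 206, 202 and 188 CPM in hy5. The groups were far apart, at a log2 fold change of -3.62 ± 0.15 (adjusted p = 4.2e-20), and K87K and WT, at means of 157 and 159 CPM, stood near hy5. BBX24 and BBX25, which also oppose HY5, were lower at -1.85 ± 0.11 and -2.80 ± 0.12 (adjusted p = 6.3e-16 and 3.9e-19).

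Among the repressors of UV-B signalling, RUP1 was at 6.46, 1.71 and 8.95 CPM in K87Q and 97.3, 91.0 and 92.8 CPM in hy5, a log2 fold change of -4.03 ± 0.41 (adjusted p = 9.6e-06). RUP2 was lower too, at -2.25 ± 0.21, and the groups overlapped for neither gene. HYH, the closest relative of HY5, was lower at -1.71 ± 0.29 (adjusted p = 6.3e-06). The ligase subunits did not move together, since COP1 was called higher at 0.75 ± 0.17 while SPA1 and SPA4 were called lower at -1.22 ± 0.14 and -1.17 ± 0.22. Of the chloroplast regulators GLK1 and GLK2, GLK1 was at 527, 323 and 431 CPM in K87Q, against 86.2, 75.1 and 79.0 CPM in hy5. That is 2.41 ± 0.19 on the log2 scale (adjusted p = 7.2e-09), with no overlap. GLK2 went the other way at -1.24 ± 0.12 (adjusted p = 7.6e-11), a call lost with all 21 libraries fitted (adjusted p = 0.205).

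The phytochrome, cryptochrome and UV-B receptor genes of this list changed by less than 2-fold. The blue-light receptor CRY1 was lower at -0.78 ± 0.11, its relative CRY2 higher at 0.33 ± 0.10, and the UV-B receptor UVR8 higher at 0.48 ± 0.12, while PHYB was not called (0.17 ± 0.13, adjusted p = 0.287). PHYA was called lower at -0.27 ± 0.11 but stood at 0.40 without TMM scaling. SPA3, called lower at -0.40, and BBX21, at -0.60, likewise changed sign without it. The other members not called were DET1, FHY1, FHL, FHY3, HFR1, PIF3, BBX22 and BBX31.

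Of the flavonoid pathway, a textbook target of HY5, 1 enzyme gene was called higher in K87Q than in hy5. Of 14 enzyme genes 11 were tested, and 1 was called higher, 4 lower and 6 not. The median was -0.45. Without TMM scaling the list stood at 3 higher and 2 lower with a median of 0.17, and with the spread from all 21 libraries none was called. The one called higher was CHS (AT5G13930), chalcone synthase, the first committed step. It was at 18.9, 12.4 and 14.0 CPM in K87Q, against 8.62, 7.33 and 9.67 CPM in hy5. The groups did not overlap, and the log2 fold change was 0.83 ± 0.16 (adjusted p = 4.3e-05). With the spread from all 21 libraries it was not called (0.82, adjusted p = 0.626). The level in K87Q lay below K87K (mean 37.0 CPM; -1.28 ± 0.15, adjusted p = 4.7e-09) and far below WT (mean 154 CPM; -3.34 ± 0.15, adjusted p = 6.4e-19), and above K87R (mean 4.89 CPM; 1.65 ± 0.16, adjusted p = 2.6e-08).

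FLS1, flavonol synthase, was at 4.04, 2.44 and 4.26 CPM in K87Q and 3.60, 3.20 and 1.69 CPM in hy5. These overlap (0.33 ± 0.34, adjusted p = 0.435), and both lie under the WT mean of 16.9 CPM. CHIL, TT7 (flavonoid 3'-hydroxylase), UGT78D1 and UGT78D2 were called lower, from -0.43 to -1.82. UGT78D1 changed sign to 0.25 without TMM scaling. DFR and LDOX, the late anthocyanin steps, were under 1 CPM in all 6 libraries and were not called. F3H had no count in any growth-light library.

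Of 11 flavonoid regulators 6 were tested, 2 called higher and 2 lower. MYB12, which activates the flavonol genes, was at 1.42, 1.45 and 0.416 CPM in K87Q. In hy5 it had 1 count in all, so the ratio of 40.3 has a 95% counting interval of 7.01 to 1616, and the adjusted p was 4.9e-04. MYB12 could pass the filter on low counts only through groups in which it is higher, so its part in the count is not read as a result. Its mean in WT was 2.40 CPM, and the K87Q and WT groups were not called different (-1.12 ± 0.68, adjusted p = 0.169). MYB75, an anthocyanin activator, was higher at 3.43 ± 0.97 (adjusted p = 0.0034). Its call was lost with the spread from all 21 libraries (3.4, adjusted p = 0.052) and without replicate 1 of every group (2.8, adjusted p = 0.053). MYBL2, a repressor of the same branch, was lower at -1.48 ± 0.13 (adjusted p = 1.9e-11). TTG1, the WD40 partner of anthocyanin activators such as MYB75, was called lower at -0.60 ± 0.12 but stood at 0.06 without TMM scaling.

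**Figure D2:**
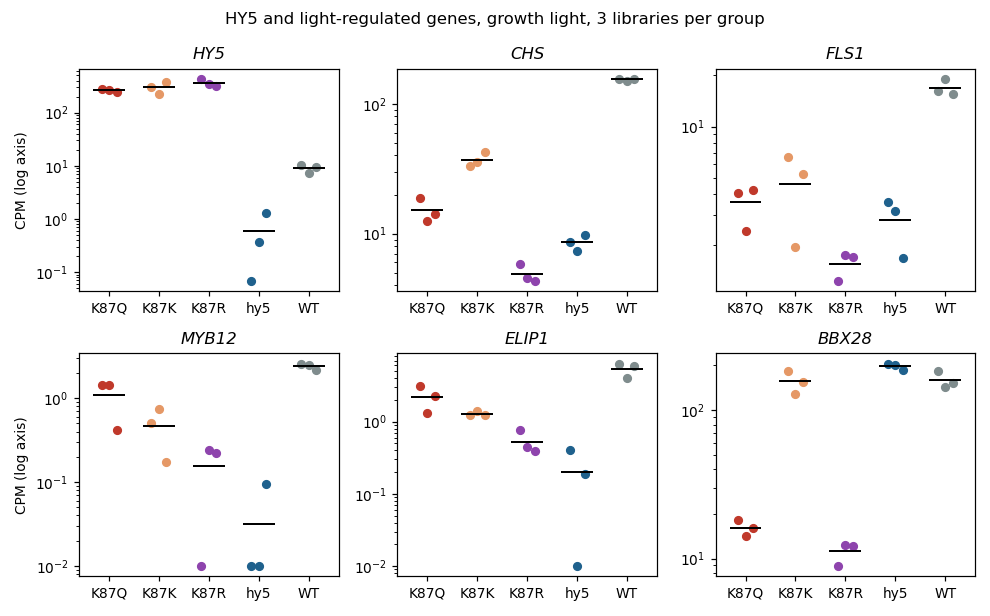
CPM on log axes of HY5, CHS, FLS1, MYB12, ELIP1 and BBX28 in the 3 libraries of each growth-light group, K87Q, K87K, K87R, hy5 and WT, with bars at the mean and libraries without a count drawn at the foot of the axis. CHS in K87Q averaged 15.1 CPM between hy5 at 8.54 and WT at 154, while FLS1 overlapped between K87Q and hy5, and BBX28 was low in K87Q and K87R alone among the 5 groups.

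In the wider phenylpropanoid pathway, 14 genes were tested, 6 called lower and 4 higher, with a median of -0.10 that became 0.55 without TMM scaling. PAL1, PAL2 and PAL3, the entry enzymes, were lower at -0.82 ± 0.11, -1.78 ± 0.11 and -1.61 ± 0.17, as were FAH1 and SNG1 of sinapate ester synthesis at -1.74 ± 0.11 and -1.17 ± 0.12 (adjusted p = 1.8e-15 and 2.8e-10). CAD5, a lignin alcohol dehydrogenase, was the member with the largest rise, 1.15 ± 0.13 (adjusted p = 7.4e-09).

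Photoprotection genes were mostly lower in K87Q. Of 11 tested, 7 were called lower, 1 higher and 3 not, with a median of -1.29. The higher one was ELIP1 (AT3G22840), an early light-induced protein, at 3.08, 1.3 and 2.24 CPM in K87Q and 0.407, 0 and 0.188 CPM in hy5. The groups did not overlap (3.31 ± 0.62, adjusted p = 3.6e-05). Near 0 in hy5, ELIP1 could pass the filter on low counts only through groups in which it is higher. Its part in the count is therefore not read as a result. ELIP2 was at 1.00, 1.92 and 1.25 CPM in K87Q and 1.36, 1.97 and 3.57 CPM in hy5, which overlap (-0.71 ± 0.42, adjusted p = 0.149). ZEP, which runs the xanthophyll cycle back to violaxanthin, was at 45.6, 49.1 and 55.9 CPM in K87Q and 333, 341 and 329 CPM in hy5 (-2.74 ± 0.11, adjusted p = 6.6e-20). PSBS, the protein needed for rapid energy quenching, was lower at -1.55 ± 0.11 and OHP1 at -3.02 ± 0.13. VDE1 and APX1 were not called, and CSD2 was called lower at -0.45 but changed sign without TMM scaling.

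Genes of the light-harvesting antenna and Rubisco fell almost throughout. Of 23 genes 22 were tested, 20 were called lower and none higher, with a median log2 fold change of -1.88 (-1.23 without TMM scaling). With the spread taken from all 21 libraries 6 of them were called lower, with the same median. Their summed level was 78410 to 113700 CPM in K87Q and 268000 to 291600 CPM in hy5. Fewer cells of a type and less RNA per cell cannot be told apart in these whole seedlings. LHCB2.3 (AT3G27690), an antenna protein of photosystem II, was at 14.5, 14.2 and 16.8 CPM in K87Q, against 2352, 2168 and 2250 CPM in hy5. The log2 fold change was -7.22 ± 0.17 (adjusted p = 1.6e-22), with K87R at a mean of 11.1 CPM, K87K at 463 and WT at 2512.

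RCA, Rubisco activase, was at 3207, 2631 and 2985 CPM in K87Q and 21280, 21430 and 20840 CPM in hy5 (-2.85 ± 0.10, adjusted p = 5.1e-22). RBCS1A, the main small subunit of Rubisco, was lower at -1.71 ± 0.09. LHCB2.1 and LHCB2.2 were lower at -4.0 ± 0.26 and -3.67 ± 0.24, LHCB3 at -2.56 ± 0.10 and LHCB6 at -2.58 ± 0.32. LHCB1.3 (-0.47 ± 0.25) and LHCB1.4 (-0.13 ± 0.36) were not called, and LHCB1.5 had no count in any growth-light library. The copies of LHCB1, LHCB2 and RBCS are near-identical, and reads could be split between them.

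Chlorophyll synthesis genes were lower as well, with 9 of 12 tested genes called lower, 1 higher and a median of -1.39. HEMA1, the entry step of tetrapyrrole synthesis, was at 32.1, 52.3 and 40.8 CPM in K87Q and 339, 371 and 371 CPM in hy5 (-3.11 ± 0.13, adjusted p = 1.6e-19). CHLH, a magnesium chelatase subunit, was lower at -2.85 ± 0.12, CRD1 at -2.53 ± 0.10, CAO, which makes chlorophyll b, at -2.44 ± 0.11, and CHLI1 at -1.63 ± 0.11. PORA, a protochlorophyllide reductase, had no count in hy5 and 0.250, 1.3 and 0.988 CPM in K87Q, at least 9.60-fold higher taking 3 counts in all of hy5 as the floor. PORA, the 1 called higher, could pass the filter on low counts only through groups in which it is higher. Its part in the count is therefore not read as a result. PORB and CHLD were not called, and CHLG was called lower at -0.30 but changed sign without TMM scaling.

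Plastid-encoded transcripts went the same way: of 102 tested, 81 (79.4%) were called lower and none higher, with a median of -3.25. The share of all counts on plastid genes, in order of replicate, was 0.169, 0.119 and 0.187% in K87Q and 0.649, 0.988 and 4.15% in hy5. It was 0.511, 1.19 and 3.91% in K87K, 1.41, 0.104 and 0.125% in K87R and 0.781, 0.946 and 1.62% in WT. The share rose with replicate number in hy5, K87K and WT but not in K87Q or K87R, and the cause was not tested. The libraries were made by poly-T selection, which plastid RNA passes only in part, and the part of that step in the difference was not tested. psbA, which encodes the D1 protein of photosystem II, was at 355, 106 and 255 CPM in K87Q and 3173, 2658 and 26070 CPM in hy5, with hy5 replicate 3 far above the others. Its log2 fold change of -5.48 ± 1.65 (adjusted p = 0.017) became -3.61 and lost its call without that library, and lost it as well without K87Q replicate 2 (-5.12) or replicate 3 (-5.53).

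Genes of the circadian clock were called in both directions. The plant clock turns on morning repressors, CCA1 and LHY, which hold down evening genes such as TOC1, ELF4 and LUX, and these in turn repress the morning loop. All 20 genes were called, 10 higher and 10 lower, at a median of -0.08. Without TMM scaling 10 were higher and 7 lower, and with the spread from all 21 libraries 8 were higher and 6 lower. With DESeq2, with RLE scaling or with the 6 libraries alone, 9 were higher and 10 lower. Morning genes were among the lower ones. CCA1 was at 0.167, 1.61 and 2.39 CPM in K87Q and 21.2, 19.8 and 19.1 CPM in hy5 (-3.90 ± 0.51, adjusted p = 5.5e-05). LHY was at 0.208, 0.415 and 0.208 CPM in K87Q and 4.0, 5.27 and 6.01 CPM in hy5 (-4.17 ± 0.37, adjusted p = 1.3e-11). LNK2, a morning coactivator, was lower at -3.51 ± 0.14, PRR9 at -2.96 ± 0.44, RVE1 at -2.76 ± 0.17 and RVE8 at -2.50 ± 0.19, and for all 6 the groups lay apart.

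Evening genes were among the higher ones. COR27 (AT5G42900), a clock and cold gene that represses TOC1, was at 35.1, 45.6 and 37.8 CPM in K87Q and 0.475, 0.752 and 0.0939 CPM in hy5 (6.45 ± 0.31, adjusted p = 3.4e-18). ELF4 was at 55.6, 52.5 and 55.9 CPM in K87Q and 1.76, 2.35 and 1.22 CPM in hy5 (4.94 ± 0.26, adjusted p = 8.6e-16), with the groups far apart for both. TOC1 was higher at 2.73 ± 0.13, FKF1, a blue-light receptor of the photoperiod pathway, at 3.85 ± 0.21, BOA at 3.35 ± 0.22, ELF3 at 2.13 ± 0.16 and LUX at 1.71 ± 0.11. PRR3, found among the largest rises of all genes, was at 6.54 to 13.1 CPM in K87Q and had 2 counts in hy5, a ratio of 161 (44.3 to 1331). PRR5 and GI rose less, by 0.48 ± 0.21 and 0.54 ± 0.14, and LNK1 was called lower at -0.64 but stood at 0.04 without TMM scaling.

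The other growth-light groups are given beside them as levels. The means of LNK2 were 26.4 CPM in K87Q, 317 in K87K, 24.4 in K87R, 301 in hy5 and 359 in WT, and those of COR27 were 39.5, 0.858, 38.4, 0.440 and 0.332 CPM in the same order. K87Q and K87R were not called different for LNK2 (0.11 ± 0.13, adjusted p = 0.545), COR27 (0.04 ± 0.19, adjusted p = 0.915) or TOC1 (-0.08 ± 0.11, adjusted p = 0.646), while LHY was lower in K87Q at -1.57 ± 0.44 (adjusted p = 0.0075), and 5 of the 20 clock genes were higher and 4 lower than in K87R. Against K87K they differed by -3.59 ± 0.14 for LNK2 and 5.52 ± 0.28 for COR27 (adjusted p = 8.0e-21 and 1.6e-17). The hour at which each group was collected is not given in the labels. The part of the clock genes in the other results was not tested.

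**Figure D3:**
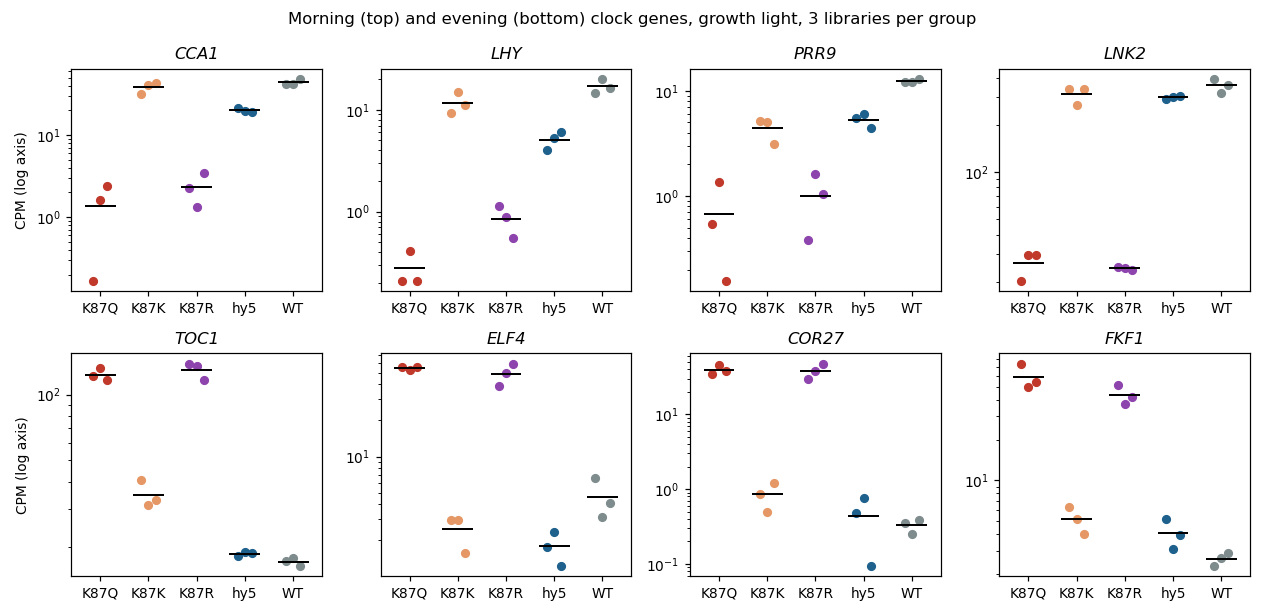
CPM on log axes of morning genes (CCA1, LHY, PRR9, LNK2, top row) and evening genes (TOC1, ELF4, COR27, FKF1, bottom row) in the 3 libraries of K87Q, K87K, K87R, hy5 and WT, with bars at the mean. K87Q and K87R were low for the morning genes and high for the evening genes. No K87Q library lay inside the range of hy5, and 60.1% of all genes tested were separated in the same way.

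The 250 bases before the RefSeq transcription start of 3 of the genes above are shown, chosen after their values were seen, because they hold ACGT elements in genes that moved in opposite directions. Capitals mark CACGTG and TACGTA in CHS (positions -233, -160 and -126 from the start), and CACGTG in ELIP1 (-66) and LHCB2.3 (-88).
CHS, chr5:4488226-4488475, plus strand, higher in K87Q: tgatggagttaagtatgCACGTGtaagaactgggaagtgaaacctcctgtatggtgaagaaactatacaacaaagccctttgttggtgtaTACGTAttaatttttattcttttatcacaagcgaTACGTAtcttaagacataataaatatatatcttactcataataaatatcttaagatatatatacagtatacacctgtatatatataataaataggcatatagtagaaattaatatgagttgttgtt
ELIP1, chr3:8085670-8085919, minus strand, higher in K87Q: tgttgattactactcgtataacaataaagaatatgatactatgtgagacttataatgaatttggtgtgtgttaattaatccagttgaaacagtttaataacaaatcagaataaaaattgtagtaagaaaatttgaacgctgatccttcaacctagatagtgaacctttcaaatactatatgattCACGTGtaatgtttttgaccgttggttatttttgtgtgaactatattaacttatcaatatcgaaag
LHCB2.3, chr3:10255656-10255905, plus strand, lower in K87Q: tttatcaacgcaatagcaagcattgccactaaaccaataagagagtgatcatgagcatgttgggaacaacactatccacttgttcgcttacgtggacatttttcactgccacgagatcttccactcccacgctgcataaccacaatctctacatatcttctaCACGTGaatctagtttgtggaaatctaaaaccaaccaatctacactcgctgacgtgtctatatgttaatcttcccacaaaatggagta

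On both strands, CACGTG stood in the 250 bases of 479 of 5470 genes higher in K87Q (8.76%, 95% Wilson interval 8.04 to 9.54), 376 of 4882 lower (7.70%, 6.99 to 8.48) and 1475 of 19538 tested (7.55%). GACGTC stood in 2.85% of the higher, 1.99% of the lower and 2.45% of all, and TACGTA in 4.26%, 5.55% and 4.86%. The 3 words share the core ACGT, which stood in 43.5%, 47.6% and 44.6%. Among genes that changed at least 2-fold, CACGTG stood in 10.2% of those higher (9.07 to 11.4) and 8.17% of those lower (7.20 to 9.25), and ACGT in 45.5% and 50.6% in the same order. The evening element AAAATATCT, searched after the clock values were seen, stood in 3.02%, 2.19% and 2.49%.

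Growth genes were low in K87Q. Of 15 tested genes of elongation, shade avoidance and auxin, 13 were called lower and none higher, with a median of -2.12. EXPA8, an expansin that loosens cell walls, was at 17.8, 17.8 and 18.4 CPM in K87Q and 266, 271 and 260 CPM in hy5. At -3.88 ± 0.12 it had one of the smallest adjusted p-values of all genes (1.3e-22). EXPA1 was lower at -3.01 ± 0.11 and the wall enzyme XTH4 at -1.62 ± 0.11 (adjusted p = 1.3e-14). Shade and auxin genes fell too, with YUC8, an auxin synthesis enzyme, at -1.90 ± 0.27, IAA29 at -2.43 ± 0.41, SAUR15 at -3.65 ± 0.60 and the homeobox gene ATHB2 at -1.47 ± 0.32. YUC9 (0.20 ± 0.93) and GA20OX1 (-0.53 ± 0.46) were not called. XTH7, GASA6 and PHI-1, all linked to cell walls or growth, were among the genes with the smallest adjusted p, at -4.08 ± 0.13, -4.82 ± 0.15 and -4.40 ± 0.14.

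Root markers were lower as well. Of 9 tested, 8 were called lower, with a median of -3.32, and RSL4 was not (-1.19 ± 0.76). Their summed level was 1043 to 1305 CPM in K87Q and 2605 to 2629 CPM in hy5. PRP3, a root-hair wall protein, was at 4.79, 3.94 and 5.46 CPM in K87Q and 126, 154 and 152 CPM in hy5 (-4.93 ± 0.21, adjusted p = 8.0e-15). The root-hair genes LRX1 and COBL9 were lower at -4.87 ± 0.28 and -3.32 ± 0.30, CASP1 of the endodermis at -2.36 ± 0.19 and the iron transporter IRT1 at -2.19 ± 0.18. No root marker was at 0 over the K87Q group. Wall proteins named for their size of change, EXT12 (-5.20 ± 0.21) and HRGP1 (-5.04 ± 0.43), moved with them. The part of the root share of the seedlings in the other results was not tested.

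Cold and abscisic acid response genes rose together: 11 of 12 were called higher, with a median of 4.73, or 4.58 with CBF3, which had no count in hy5, at its lower bound. With the spread from all 21 libraries 10 were called. CBF3, COR15B and any other member near 0 in hy5 could pass the filter on low counts only through groups in which they are high. Their part in these counts and the median is therefore not read as a result. KIN2 (AT5G15970) was at 920, 705 and 656 CPM in K87Q and 12.4, 9.31 and 10.6 CPM in hy5 (6.13 ± 0.22, adjusted p = 1.1e-14). COR15B, which protects chloroplast membranes in freezing, was at 71.5, 70.2 and 58.2 CPM in K87Q and 0.0679, 0 and 0.282 CPM in hy5 (9.12 ± 0.47, adjusted p = 1.7e-10). RD29A was higher at 6.53 ± 0.26, COR15A at 4.36 ± 0.23, RD29B at 3.98 ± 0.38 and ABI5, a bZIP factor of abscisic acid signalling, at 4.53 ± 0.54. COR47 and RAB18 rose by less, 1.42 ± 0.11 and 0.64 ± 0.19. CBF2 was not called (-0.62 ± 0.35), while CBF3 was at least 24.8-fold higher. COR15A and COR15B, and KIN1 and KIN2, are similar pairs between which reads could be split. KIN2 averaged 580 CPM in K87R, 23.4 in K87K and 33.3 in WT.

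Seed storage and late embryogenesis genes were raised at low levels. Of 13, 8 were tested and 7 called higher, with a median of 6.18, or 3.46 with the 4 genes without a count in hy5 at their bounds. A member near 0 in hy5 could pass the filter on low counts only through groups in which it is high, so nothing is read from this count or median. Their summed level was 38.8 to 68.6 CPM in K87Q and 2.38 to 3.19 CPM in hy5. CRA1, a 12S cruciferin storage protein, was at 26.4, 20.1 and 15.8 CPM in K87Q and had 1 count in all in hy5, a ratio of 763 (95% counting interval 137 to 30157). CRC (AT4G28520), another cruciferin, was at least 98.3-fold higher, and the oil-body protein OLEO2 was higher at 2.92 ± 0.40. SESA1 and SESA4 had no count in the K87Q libraries, and the cruciferin gene CRB (AT1G03880) and SESA3 had counts in replicate 1 only. The part of these seed transcripts in the rise of the cold and abscisic acid genes was not tested.

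Among defence genes of the jasmonate and ethylene branch, 11 of 16 tested were called higher and 1 lower, with a median of 0.95. The 11 include the 4 PDF1 defensins below, near 0 in hy5. Such genes could pass the filter on low counts only through groups in which they are high. Their part in this count and median is therefore not read as a result. PDF1.3, a plant defensin, was at 28.5, 28.1 and 28.5 CPM in K87Q and had no count in hy5, at least 341-fold higher. PDF1.2C and PDF1.2B, also without a count in hy5, were at least 178-fold and 80.1-fold higher, and PDF1.2A had 1 count there, a ratio of 463 (82.9 to 18321). These defensins are near-identical copies. VSP1 was higher at 1.79 ± 0.24, LOX2, a jasmonate synthesis enzyme, at 1.14 ± 0.13 and the repressor JAZ1 at 1.14 ± 0.26. ORA59, LOX3, AOC1 and CHIB were not called, AOS was called lower at -0.31 but changed sign without TMM scaling, and MYC2 had no count in any growth-light library. CORI3, a jasmonate-responsive gene, was among the largest rises at 7.17 ± 0.46.

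Of 8 salicylate defence genes tested, 2 were called lower (ICS1 at -2.03 ± 0.29, PAD4 at -1.41 ± 0.23) and 1 higher, WRKY70, at 1.16 ± 0.41 (adjusted p = 0.019), a call lost without K87Q replicate 2 or hy5 replicate 3, with the 6 libraries alone and with the spread from all 21 libraries (adjusted p = 0.061 to 0.270). PR5 was at 2.00, 0.830 and 0.780 CPM in K87Q and 1.09, 1.03 and 0.470 CPM in hy5. These overlap (0.47 ± 0.56, adjusted p = 0.495), and PR5 turned to -0.11 without K87Q replicate 1. PR1 had 1 count in the 6 libraries together.

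**Figure D4:**
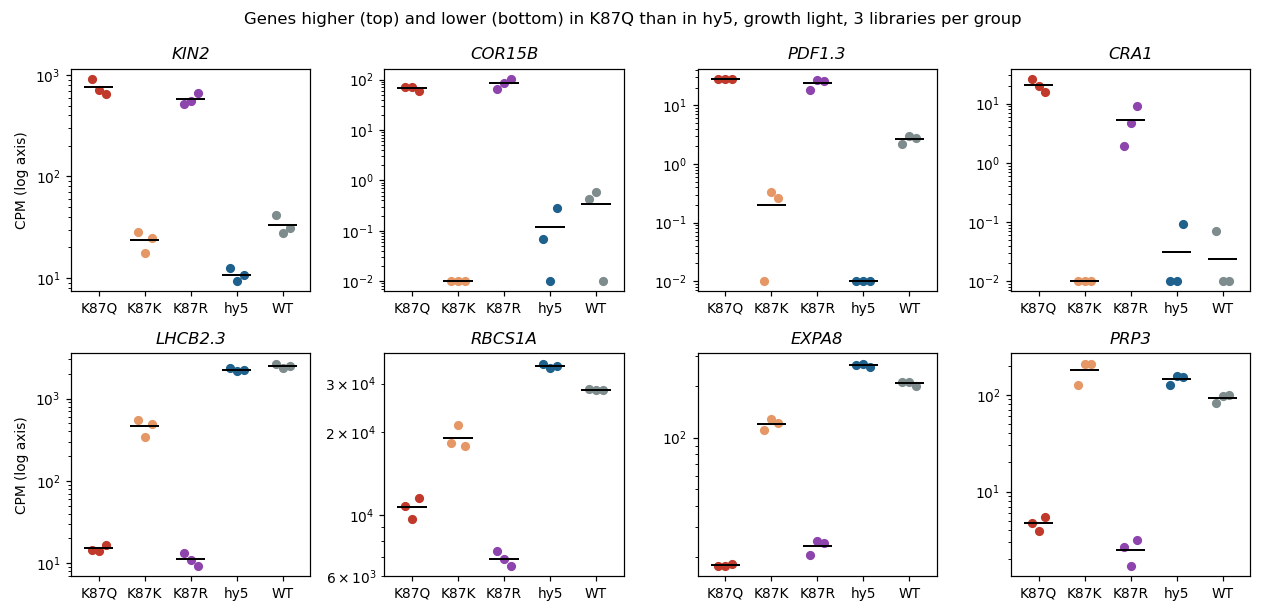
CPM on log axes of genes higher (KIN2, COR15B, PDF1.3, CRA1, top row) and lower (LHCB2.3, RBCS1A, EXPA8, PRP3, bottom row) in K87Q than in hy5, in the 3 libraries of K87Q, K87K, K87R, hy5 and WT, with bars at the mean and libraries without a count at the foot of the axis. In all 8 genes every K87Q library lay outside the range of the hy5 libraries. The genes were picked with their values in this comparison known, and 60.1% of all genes tested were separated in the same way.

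Genes of sugar status and carbon starvation were low in K87Q, with 11 of 13 called lower, none higher and a median of -1.43. DIN10 was at 313, 267 and 288 CPM in K87Q and 1958, 1999 and 2033 CPM in hy5 (-2.79 ± 0.11, adjusted p = 5.2e-20). The hexose transporter STP1 was lower at -2.85 ± 0.12, TPS11 of the trehalose-phosphate synthase family at -2.61 ± 0.11 and ASN1, an asparagine synthetase induced by darkness, at -2.25 ± 0.11. BGLU30 and GPT2 were not called. All 6 nitrate genes tested were called lower, with a median of -1.22. They included the nitrite reductase NIR1 at -2.02 ± 0.10, the nitrate reductases NIA1 and NIA2 at -1.54 ± 0.11 and -1.39 ± 0.15, and the transporter NRT1.1 at -1.06 ± 0.10. With the spread from all 21 libraries, 2 of the 6 were called.

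The heat shock list was mixed, with 4 of 10 called higher, 3 lower and a median of 1.32. HSFA2, a heat stress transcription factor, was at 32.1, 29.1 and 24.7 CPM in K87Q and 0.95, 0.940 and 1.22 CPM in hy5 (4.79 ± 0.32, adjusted p = 1.5e-13). The chaperones HSP101 and HSP90.1 were higher at 3.36 ± 0.19 and 2.69 ± 0.18. The small chaperone HSP18.2 was lower at -1.99 ± 0.67 (adjusted p = 0.013), at under 3 CPM in every library of both groups.

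Glucosinolate genes were called in both directions, 4 of 16 each, with a median of -0.05 (11 higher and 1 lower without TMM scaling). MYB28, an activator of the aliphatic branch, was higher at 1.53 ± 0.17, and MAM3, a chain elongation enzyme, had 2 counts in the K87Q libraries and 1.29, 1.32 and 0.939 CPM in hy5, 37.3 times as much in hy5 (9.72 to 318; adjusted p = 5.7e-06). Of 11 acetylation and deacetylation enzymes, 4 were called higher (HAC1 at 1.00 ± 0.21, SRT1, HDA9 and HDA19) and 1 lower. With the spread from all 21 libraries none was called higher. HDA9 also lost its call without K87Q replicate 1 or hy5 replicate 2, and SRT1 without hy5 replicate 1. The lower one was HDA15, a deacetylase, at 27.0, 15.5 and 16.0 CPM in K87Q and 40.1, 37.8 and 33.4 CPM in hy5 (-0.93 ± 0.20, adjusted p = 2.0e-04), with no overlap. Without TMM scaling its change was -0.28 and not called, and 8 enzymes were higher and none lower. HDA15 was nearly without counts in K87K, at a mean of 0.0289 CPM.

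Genes that commonly vary between natural accessions were looked at because of the alleles. Of 8 tested, 5 were called higher and 2 lower, with a median of 0.86 (6 higher and none lower without TMM scaling). ESM1, a modifier of glucosinolate breakdown, was at 130, 133 and 137 CPM in K87Q and 29.1, 29.2 and 26.8 CPM in hy5 (2.23 ± 0.11, adjusted p = 3.4e-18), and averaged 135 CPM in K87K, 58.2 in K87R and 37.3 in WT. ACD6, a regulator of defence, was higher at 3.29 ± 0.21, averaging 19.3 CPM in K87Q, 1.51 in K87K, 36.9 in K87R, 1.98 in hy5 and 2.59 in WT. AOP3 had no count in any growth-light library. By position, 52.5 to 53.7% of the genes tested were called on each of chromosomes 1 to 5, and 42.0 to 62.4% in the 104 windows of 1 Mb with at least 50 genes (median 52.7%). Asking for a 2-fold change as well left 18.6 to 40.7% (median 26.9%), with the highest share in the window that starts at 24 Mb on chromosome 1.

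**Figure D5:**
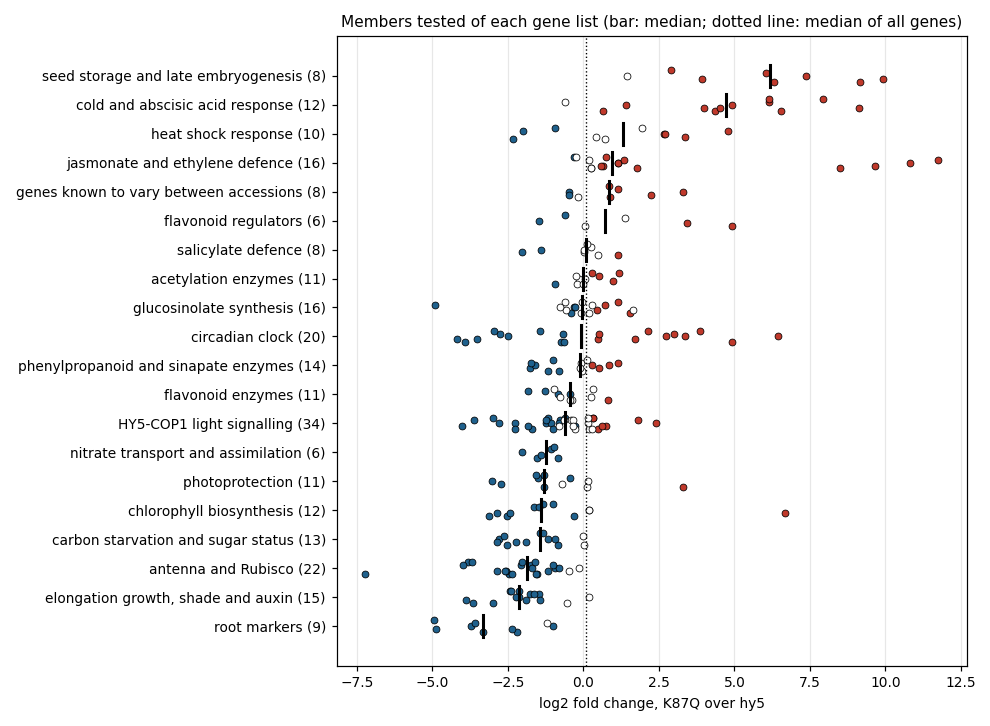
Log2 fold change of K87Q over hy5 (x axis) for the tested members of the 20 gene lists (rows, number tested in brackets), filled red where called higher, blue where called lower and white where not called, with a bar at each list's median and a dotted line at the median of all genes, 0.10. Medians run between 6.18 for seed storage genes, from which nothing is read, and -3.32 for root markers. With genes without a count in hy5 at their bounds, the seed storage median was 3.46. That of the cold and abscisic acid genes was then 4.58.

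Among the genes with the largest difference in level per kb of the table's gene length, GRP7, a clock-controlled RNA-binding protein, averaged 3575 CPM per kb in K87Q and 196 CPM per kb in hy5 (log2 fold change 4.19 ± 0.36). MT2A, a metallothionein, averaged 2139 CPM per kb in K87Q and 291 in hy5, and the growth regulator TCTP 5800 in K87Q and 3921 in hy5. RBCS1A, on the same scale, averaged 8397 CPM per kb in K87Q and 27470 in hy5. Largest falls outside the lists were RNS3, a ribonuclease, at -6.47 ± 0.53, G3Pp2 at -6.23 ± 0.55, LEA3 at -5.35 ± 0.23, the thionin THI2.2 at -5.07 ± 0.17, MIOX2, a myo-inositol oxygenase, at -5.02 ± 0.16, and WRKY22 at -4.93 ± 0.21. NDA1, an alternative NAD(P)H dehydrogenase, and RAV2, a repressor of flowering, were lower at -4.73 ± 0.15 and -3.72 ± 0.12. BGLU11 was higher at 3.72 ± 0.13, the sugar transporter SWEET4 was at 8.76 to 11.2 CPM in K87Q with 1 count in hy5 (ratio 365, 65.2 to 14429), and the defensins and cold genes above make up most of the other large rises.

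Set against the other growth-light groups, K87Q differed from K87K at 10026 genes (50.9%; 25.2% higher, 25.8% lower), from K87R at 5372 (27.3%; 15.6% higher, 11.7% lower) and from WT at 10227 (52%; 26.4% higher, 25.5% lower). With the spread from all 21 libraries, the difference from K87R gave 0 calls by edgeR, with 1538 genes at an unadjusted p under 0.05, while DESeq2 on the growth-light libraries gave 5799. Without K87Q replicate 1 it gave 3379, and without replicate 1 of every group 2803, both by edgeR. Against K87R, 16 of the 22 antenna and Rubisco genes were higher in K87Q and none lower, with a median of 0.59. Likewise 7 photoprotection genes of 11 were higher and 3 lower (median 0.69), and 5 flavonoid enzymes of 11 were higher and none lower (median 0.55). ELIP2 was higher in K87Q than in K87R by 3.17 ± 0.59 (adjusted p = 1.8e-04). Of the 12 cold and abscisic acid genes none was higher and 1 lower (median -0.17). Against K87K, 17 antenna and Rubisco genes were lower and none higher, 11 cold genes were higher and 1 lower, and 11 glucosinolate genes were higher and 4 lower. K87K and K87Q are placed in the same hy5 allele, K87R in another, so between K87Q and K87R allele and substitution cannot be told apart. Between K87Q and K87K, the substitution cannot be told apart from the insertion or other differences of the lines. HDA15, nearly without counts in K87K, is one such difference between these lines.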

How the data were processed

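Raw read counts per gene were deposited by the authors as 1 table of 32833 genes. The submitters' processing notes list featureCounts (1.5.0-p3), StringTie (1.3.3b), HISAT2 (2.0.5), fastp and DESeq2 (1.20.0), and TAIR10 as the build, without saying which did which step. Messenger RNA was selected with poly-T beads, per the labels' protocols, and a strand setting is not given in the sources used here, so a gene and an overlapping antisense gene cannot be told apart. Groups came from the genotype and treatment labels, and columns were matched to samples by the names in the labels.

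The 15 growth-light libraries (5 groups of 3, 7283290 to 22101539 counts each) were fitted together with edgeR 4.0.16 in R 4.3.3. Low genes were removed with filterByExpr, which left 19679, sizes were scaled with TMM, and quasi-likelihood F tests with robust dispersion were adjusted by Benjamini-Hochberg over all 19679 genes. At the median library size 1 CPM is about 14.3 counts. The SE of a log2 fold change is its size over the root of F. Where a group had no count, the fold is a bound computed with 3 counts in the whole group, and where it had 1 to 3 the ratio has a 95% counting interval. These cover counting error only. Alternatives were 21 or 6 libraries, DESeq2 1.42.0, other scalings and filters, a replicate block and leaving out each library. The fit was also run on simulated data of 19229 genes, in which 100 changed 2-fold and 100 changed 4-fold. It recovered 80 and 94 of them, with 6 false calls. With so few genes changed, that run cannot test the scaling under a composition difference like the real one.

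Named were HY5, the 12 largest rises and falls with at least 100 counts, a symbol and separate groups, the 10 smallest adjusted p, the 5 largest differences per kb each way, on or off genes and members of 20 lists (293 genes, 292 in the table, 262 tested). The members, lists and alternatives were chosen with earlier results of these data known. Symbols, promoters and codons came from RefSeq TAIR10.1, in which 32520 genes had the same start and end.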

Additional observations from a re-analysis of the deposited data

How the results depend on the processing

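Counts for K87Q against hy5 stayed within 1.5 times of 10442 with the 6 libraries alone, DESeq2, RLE scaling, either filter and the replicate block. With the spread from all 21 libraries they were 3386 (1488 higher, 1898 lower), against K87K 3099, against K87R 0 and against WT 3389. Without TMM scaling 11311 were higher and 2404 lower. The cause of these moves was not tested. Like-numbered libraries of K87Q and hy5 correlated at 0.053, -0.010 and -0.008 in their deviations, so the numbers do not pair them, and the replicate block gave 10540 calls. Leaving out each library gave 9246 to 9924 calls against hy5 (4729 to 5099 higher, 4517 to 4825 lower), 9188 to 9746 against K87K, 3379 to 5964 against K87R (3379 without K87Q replicate 1) and 9112 to 9917 against WT. An alternative chosen after seeing the data left out replicate 1 of every group, whose columns are named unlike the rest, and gave 2803 against K87R. Of the 109 genes named by the rule, under 1628 alternatives, 1583 kept direction and call, 43 kept direction only (27 of them with all 21 libraries, CHS, RBCS1A, RBCS3B, TTG1, MYB75, GLK2, FAH1, SNG1 and PSBS included) and 2 reversed: TTG1 at 0.06 without TMM scaling and PR5 at -0.11 without K87Q replicate 1 (up to 0.70 without replicate 3). The rule named most of these genes for their size of change or p-value in this comparison. Their keeping a call is therefore partly built in and is no measure for other genes. Of all 10442 called genes, 3358 were also called with all 21 libraries. PHYA, SPA3, BBX21, UGT78D1, CSD2, CHLG, LNK1 and AOS, list members outside that rule, also changed sign without TMM scaling, as did 1200 of all called genes. With 150 promoter bases, CACGTG stood in 6.75% of higher and 5.82% of lower genes. Asking for a 2-fold change as well took the median window from 52.7% called to 26.9%. At this depth genes under about 1 CPM rest on few counts.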

Other observations

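Transcript classes outside the protein-coding genes are set beside the 27.8% of all tested genes called higher and the 25.3% called lower in K87Q. Of 156 long non-coding RNAs tested, 36 were called higher and 11 lower, with a median log2 fold change of 0.70, both shares below those of all genes. Of 48 small nucleolar RNA genes, 19 were called higher and none lower (median 1.33), and of 17 transfer RNA genes none was called higher and 14 lower (median -4.07). Mitochondrial genes were called lower in 9 of 39 and higher in none (median -2.34), the lower share being near that of all genes. Their share of all counts was 0.0654, 0.0369 and 0.055% in K87Q and 0.00655, 0.184 and 0.0309% in hy5. Of the hy5 libraries only replicate 2 exceeded the K87Q libraries in that share, so the lower direction is not read as a difference between the groups. K87K, at 0.00583, 0.199 and 0.0361%, stood near hy5 replicate by replicate. WT (0.0054, 0.00706 and 0.0105%) and K87R (0.0233, 0.0192 and 0.0229%) had no such peak in replicate 2, and the cause was not tested. Small nucleolar, transfer and mitochondrial RNAs mostly lack the poly(A) tail used for selection, and the part of that step was not tested.

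There were 13 genes with at most 3 counts over a group and a mean of at least 100 in the other, 10 of them counted in K87Q and 3 in hy5. The 8 with a symbol, PDF1.3, PDF1.2C, PDF1.2B, PDF1.2A, CRC, CRA1, SWEET4 and PRR3, were all of the first kind.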
